A study of Sus scrofa with 10 samples.

Results

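The genes described here encode the kinetochore, the centromere beneath it and the spindle checkpoint that reads it. They were chosen by name from a list of 49 symbols, of which 47 had a row in the deposited values, which cover 12378 pig genes with a symbol and 3260 without one. KNL1 and CENPX had no row matched by symbol and are not analysed here. Right ventricular tissue had been taken from 5 pigs with CTEPH (chronic thromboembolic pulmonary hypertension, a disease of clot-narrowed lung arteries against which the right ventricle has to pump) and from 5 Sham pigs. Each pig gave 1 library. The CTEPH pigs are numbered s1, s3, s4, s5 and s9. Numbers s2, s6, s7, s8 and s10 belong to Sham pigs. The sources used here give no strain, age, sex, time after surgery or method of obstruction, and no allele or agent other than the group name.

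The centromere is the stretch of chromosome marked by the histone H3 variant CENP-A. A constitutive network of proteins sits on this chromatin through much of the cell cycle, and in mitosis it recruits the outer kinetochore, whose NDC80 complex holds spindle microtubules. The spindle checkpoint delays chromosome separation until kinetochores are attached, and the chromosomal passenger complex corrects wrong attachments. Many of these genes are known to be transcribed in the late phases of the cell cycle in dividing cells. Most cardiomyocytes of the grown heart have left the cell cycle, so that transcripts of this kind are commonly low in adult myocardium. Several of the encoded proteins also have known roles outside mitosis, such as ZW10 in membrane traffic.

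Values are on a log2 scale after quantile normalization, a step that gives all libraries nearly the same distribution. Low values follow from log2(2 × count + 1), with the counts as given here, and the added 1 compresses the differences of low genes. The values are not scaled by gene length, so levels are compared between libraries and not between genes. Whole counts could be read back for values under 9.48, in all 10 libraries for 35 of the 47 genes. Relative depth, taken from such counts over all genes, ranged from 0.724 (s9) to 1.57 (s4) among the CTEPH pigs and from 0.748 to 1.51 in Sham. Of 11 cardiomyocyte markers 10 were measured, with no value under 14.70 in any library. In bulk tissue, more cells of a type and more RNA per cell cannot be told apart. Nothing in the labels says how the pigs were assigned or whether the tissue samples were processed together. The p-values set the group difference against the spread of libraries within the groups. A difference between the groups in assignment or processing cannot be told apart from CTEPH.

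In the CTEPH ventricles 24 of the 47 genes rose and 0 fell, at an adjusted p under 0.05 (limma with Benjamini-Hochberg over all genes). Of all measured genes, 2.83% rose and 1.79% fell by the same rule. Unadjusted, 34 of the 47 had a p under 0.05 with a higher value in CTEPH and 0 with a lower one (limma), against 9.84% and 10.5% of all genes, and voom on the counts read back also called 0 lower. The median log2 difference, CTEPH minus Sham, was 1.34 over the 47 genes and -0.03 over all genes. With the lowest 25% of all genes left out, 24 of the 47 remained, and their median was 0.27, against -0.03 over all genes left. Only 5 of the rising genes were among those that remained, and all 5 still rose. Over all genes left, 273 rose and 210 fell in that setting. Every CTEPH library lay above every Sham library for 29 of the 47 genes and below for 0 of them, against 3.7% and 2.87% of all genes. All 24 rising genes rose at least 2-fold, 18 of them at least 4-fold and 13 at least 8-fold, with a median log2 difference of 3.15. The other 23 had a median of 0.24 and a range of -0.38 to 1.37. The genes were split by the same test, so a gap between these medians follows in part from that split. Mean Sham log2 values ran from 2.64 to 6.91 (median 4.82) in the 24 and from 5.64 to 11.51 (median 8.39) in the 23. NDC80, CENPT and DLGAP5 ranked 12th, 13th and 14th among all genes by the size of their rise.

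**Figure D1:**
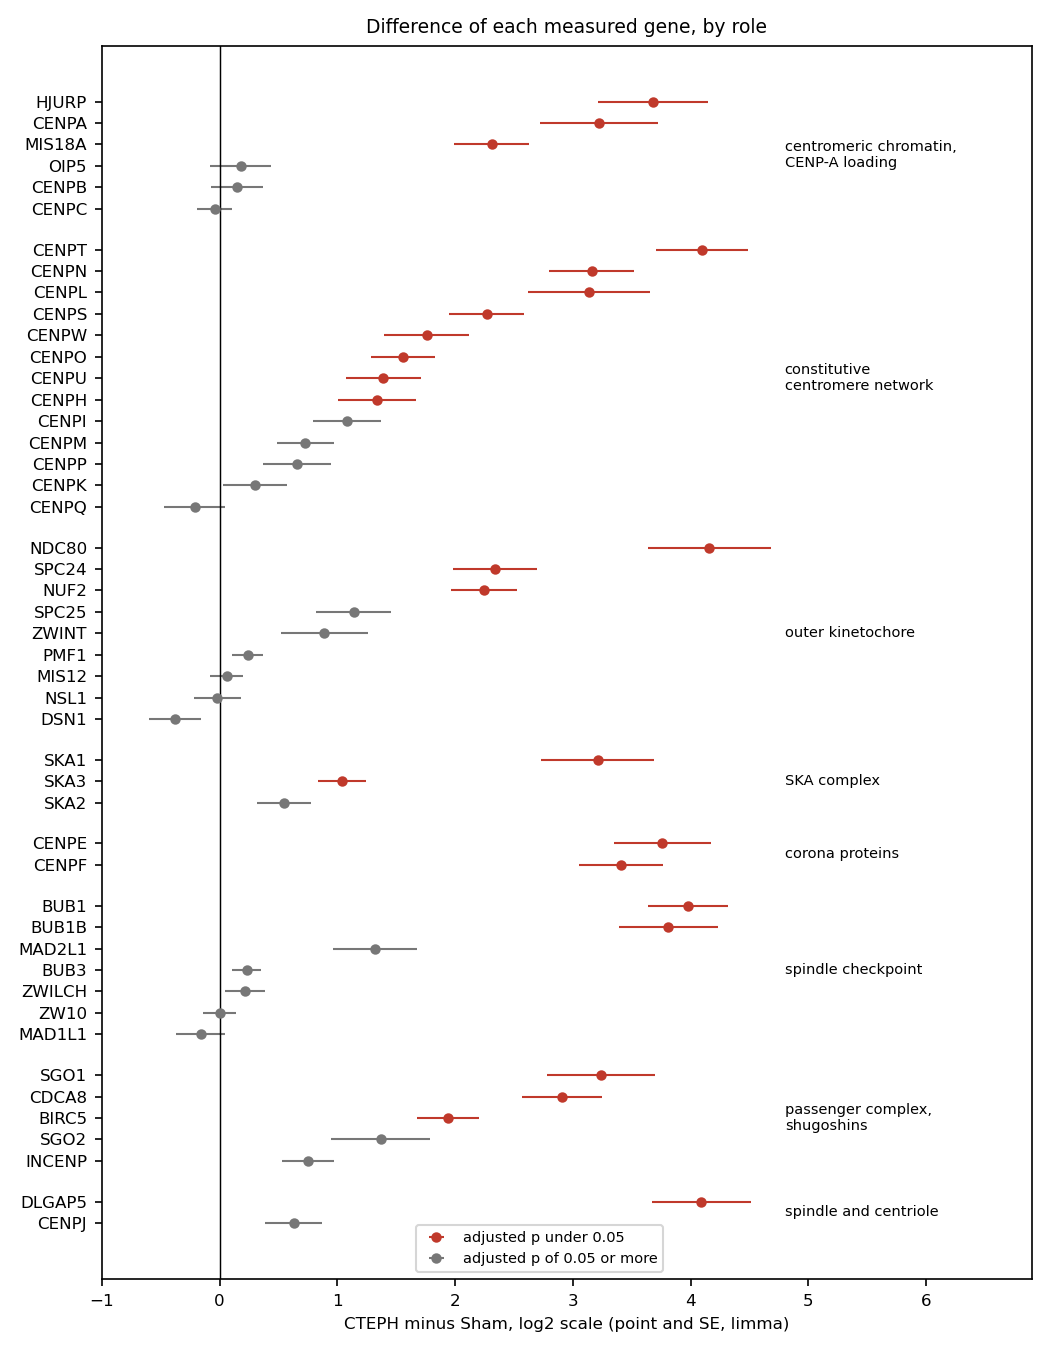
Difference between CTEPH and Sham on the log2 scale for each of the 47 measured genes, grouped by role and sorted within it; points are limma estimates, bars are SE (5 libraries a group), and red marks an adjusted p under 0.05. In all roles but the corona proteins, genes that rose stand beside genes that did not pass, from NDC80 at 4.16 to DSN1 at -0.38 in the outer kinetochore.

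In the centromeric chromatin, 3 of 6 genes rose: the histone variant gene CENPA, its chaperone HJURP and MIS18A, a subunit of the complex that licenses the centromere for new CENP-A. HJURP, at chromosome 15, 134106561 to 134123163 of Sscrofa11.1, had log2 values of 5.62, 5.91, 6.88, 6.44 and 6.76 in CTEPH and 1.23, 2.91, 3.35, 3.0 and 2.72 in Sham, given here and below in the order s1, s3, s4, s5, s9 and s2, s6, s7, s8, s10. The counts behind them were 23, 28, 99, 47 and 40 in CTEPH and 1, 6, 3, 3 and 2 in Sham. All 5 CTEPH libraries were above every Sham library, though under the library medians of 9.305 to 9.308. The Sham libraries were near the bottom of the scale, s2 lowest with 1 count. HJURP rose by 3.68 ± 0.47 (SE; adjusted p = 6.2e-04, limma). Divided by relative depth, its mean count was 43.2 ± 16.5 (SD, 5 CTEPH pigs) against 2.98 ± 1.37 (SD, 5 Sham pigs), a ratio of 14.5. CENPA (chromosome 3, 112263912 to 112272638) stood at 6.93, 6.29, 7.63, 7.31 and 7.43 in CTEPH and 2.01, 4.30, 4.65, 4.78 and 3.75 in Sham. The groups did not overlap, and Sham library s2 was again the lowest, with 2 counts against 5 to 16 in the other Sham libraries. CENPA rose by 3.22 ± 0.50 (SE; adjusted p = 0.00268, limma). MIS18A (chromosome 13, 195912044 to 195928309) stood at 6.77, 6.84, 7.74, 7.95 and 8.07 in CTEPH and 4.79, 5.09, 5.51, 5.54 and 4.87 in Sham, without overlap, and rose by 2.31 ± 0.32 (SE; adjusted p = 0.00143, limma).

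The other 3 genes of this layer did not pass. CENPC encodes the protein that bridges CENP-A chromatin to the outer kinetochore (chromosome 8, 65237825 to 65315788), and its log2 values were 9.56, 9.50, 9.16, 9.81 and 9.68 in CTEPH and 9.60, 9.47, 9.73, 9.58 and 9.52 in Sham. The libraries of both groups were interleaved, with CTEPH library s4 the lowest and s5 the highest of all. Its difference was -0.04 ± 0.15 (SE; adjusted p = 0.918, limma), with a 95% interval of -0.36 to 0.28. CENPB, which binds a motif of satellite DNA (chromosome 17, 31929846 to 31932539), had values of 11.38, 11.92, 11.56, 11.69 and 11.72 in CTEPH and 12.19, 11.32, 11.72, 10.77 and 11.53 in Sham. Sham spanned the whole CTEPH range, and the difference was 0.15 ± 0.22 (SE; adjusted p = 0.759, limma). OIP5, the partner of MIS18A in the same complex (chromosome 1, 130036478 to 130054058), was at 10.59 ± 0.59 (SD, 5 CTEPH pigs) against 10.41 ± 0.32 (SD, 5 Sham pigs), a difference of 0.18 ± 0.26 (SE; adjusted p = 0.746, limma). The OIP5 gene overlaps NUSAP1, a spindle gene that rose by 1.44 ± 0.23, and reads of overlapping genes could be shared, because no source used here gives the strand setting of the counting.

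The constitutive centromere network had 8 rising genes of 13. CENPT, which carries NDC80 complexes on its long tail (chromosome 6, 28450568 to 28456620), had values of 7.67, 7.47, 8.64, 8.57 and 8.13 in CTEPH and 4.12, 3.98, 4.38, 4.78 and 2.72 in Sham. Every CTEPH library was above every Sham library by more than the whole Sham range, and Sham library s10 was lowest. CENPT rose by 4.10 ± 0.39 (SE; adjusted p = 9.9e-05, limma), and its depth-scaled counts had a ratio of 17.4, 145 ± 51.6 over 8.3 ± 4 (SD over 5 pigs each). It overlaps TSNAXIP1 on the map, whose own difference was -0.13 ± 0.36 (adjusted p = 0.876, limma). On the same map 10 of the 24 rising genes, CENPT among them, overlap another gene, and whether they share reads was not tested. Of the other genes overlapped, ADCY3 (at CENPO), PRIMPOL (at CENPU) and MRPL57 (at SKA3) differed by 0.24 ± 0.16, 0.32 ± 0.27 and 0.24 ± 0.16. Their adjusted p were 0.459, 0.553 and 0.419 (limma), and the rest had no row matched by symbol. CENPN, which reads the CENP-A nucleosome (chromosome 6, 7227981 to 7254927), was at 6.69, 6.70, 7.95, 8.13 and 7.40 in CTEPH and 3.75, 4.38, 3.98, 4.21 and 4.78 in Sham. It did not overlap between groups, with s1 and s3 the lowest of the CTEPH libraries, and rose by 3.16 ± 0.36 (SE; adjusted p = 2.5e-04, limma). CENPL, the partner of CENPN, rose by 3.14 ± 0.52 (SE; adjusted p = 0.00426, limma) from counts of 1 to 13 in Sham to 11 to 73 in CTEPH.

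CENPS and CENPW, histone-fold partners of CENPT, rose by 2.27 ± 0.32 and 1.76 ± 0.36 (adjusted p = 0.00163 and 0.0167, limma). CENPO and CENPU, which belong to 1 subcomplex of the network, rose by 1.56 ± 0.27 and 1.39 ± 0.32 (adjusted p = 0.00518 and 0.0274, limma). CENPH of a further subcomplex rose by 1.34 ± 0.33 (SE; adjusted p = 0.0343, limma). The calls of CENPU and CENPH lay near the threshold, while their differences stayed between 1.17 and 1.53 and between 1.15 and 1.54 in the 10 refits without 1 library. CENPU lost its call without CTEPH library s4 or s5 (adjusted p = 0.0598 and 0.0686, limma) or Sham library s6 or s7 (0.0607 and 0.0628). CENPH lost its call without CTEPH library s4, s5 or s9 (adjusted p = 0.0765, 0.0836 and 0.0553, limma) or Sham library s2, s6, s7 or s10 (0.0601, 0.0884, 0.0669 and 0.0776).

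The 5 uncalled genes of the network covered a wide range. CENPI, which works with CENPH, was at 8.02 ± 0.63 (SD, 5 CTEPH pigs) against 6.94 ± 0.24 (SD, 5 Sham pigs) with no overlap between groups, and its difference of 1.08 ± 0.29 stood at an adjusted p of 0.0504 (limma). It passed without CTEPH library s1 or s3 (adjusted p = 0.0398 and 0.0326, limma) and with voom on the counts (0.0428). CENPK, of the same subcomplex, differed by 0.30 ± 0.27 (SE; adjusted p = 0.586, limma), and CENPM by 0.73 ± 0.24 (SE; adjusted p = 0.104, limma). The groups did not overlap for CENPM, the lowest CTEPH library being 0.11 above the highest Sham library, and it passed without the intensity trend (adjusted p = 0.045, limma). CENPP differed by 0.66 ± 0.29 (SE; adjusted p = 0.217, limma); in pig as annotated by RefSeq, its gene body spans ASPN, which rose by 1.21 ± 0.24, and OGN, OMD, ECM2 and IPPK. CENPQ (chromosome 7, 43624734 to 43639907) had values of 9.12, 8.15, 8.23, 8.76 and 8.98 in CTEPH and 9.17, 8.07, 8.77, 8.93 and 9.33 in Sham. The groups were interleaved and s10 of Sham was the highest library. Its difference was -0.21 ± 0.26 (SE; adjusted p = 0.715, limma), with a 95% interval of -0.78 to 0.36, and CENPQ is known to bind in 1 subcomplex with CENPO and CENPU.

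Of the outer kinetochore, 3 of 9 genes rose, all of them subunits of the NDC80 complex, and none of the 4 measured MIS12 complex genes did. NDC80 (chromosome 6, 104000794 to 104055785) had values of 6.95, 7.30, 8.35, 8.81 and 8.59 in CTEPH and 3.98, 4.10, 2.09, 5.03 and 3.98 in Sham. Sham library s7 was lowest, with 1 count against 6 to 14 in the other Sham libraries, and the CTEPH libraries held 59 to 261 counts. NDC80 rose by 4.16 ± 0.52 (SE; adjusted p = 5.7e-04, limma), with a depth-scaled count ratio of 18. NUF2, its coiled-coil partner (chromosome 4, 87162873 to 87194193), was at 8.11, 8.01, 8.78, 9.12 and 9.29 in CTEPH and 5.91, 6.37, 6.43, 6.80 and 6.54 in Sham. The groups lay apart, and s1 and s3 were again the lowest CTEPH libraries. NUF2 rose by 2.25 ± 0.28 (SE; adjusted p = 5.6e-04, limma).

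SPC24 and SPC25 form the inner end of the same complex. SPC24 was at 8.84 ± 0.86 (SD, 5 CTEPH pigs) against 6.49 ± 0.33 (SD, 5 Sham pigs) and rose by 2.34 ± 0.36 (SE; adjusted p = 0.00242, limma). SPC25 was at 8.22 ± 0.77 (SD, 5 CTEPH pigs) against 7.08 ± 0.17 (SD, 5 Sham pigs) and its difference of 1.14 ± 0.32 missed the threshold at an adjusted p of 0.0591 (limma), although every CTEPH library was above every Sham library. It passed without CTEPH library s1 or s3 (adjusted p = 0.0459 and 0.0265, limma). ZWINT, which binds KNL1, differed by 0.89 ± 0.37 (SE; adjusted p = 0.193, limma), with CTEPH library s3 the lowest of all 10 libraries at 5.30 and s5 the highest at 7.55.

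The MIS12 complex joins the inner to the outer kinetochore. MIS12 itself (chromosome 12, 51505376 to 51508337) was at 9.50, 9.53, 9.61, 9.62 and 10.01 in CTEPH and 9.55, 9.50, 9.55, 9.63 and 9.75 in Sham. All libraries lay close together apart from s9 of CTEPH, and the difference was 0.06 ± 0.14 (SE; adjusted p = 0.861, limma), with a 95% interval of -0.25 to 0.36. NSL1 (chromosome 9, 130599901 to 130668935) was at 8.94, 8.41, 8.20, 8.53 and 8.82 in CTEPH and 8.34, 8.26, 8.85, 8.98 and 8.56 in Sham. The groups were interleaved, with a difference of -0.02 ± 0.20 (SE; adjusted p = 0.974, limma) and an interval of -0.45 to 0.42. DSN1 (chromosome 17, 39992769 to 40017388) was at 8.27, 7.62, 7.99, 8.69 and 7.51 in CTEPH and 8.38, 8.24, 8.51, 8.45 and 8.38 in Sham. The Sham libraries were tightly grouped, while CTEPH libraries s3, s4 and s9 were below all of them and s5 above all of them, and the difference was -0.38 ± 0.22 (SE; adjusted p = 0.375, limma). PMF1 was at 9.72 ± 0.07 (SD, 5 CTEPH pigs) against 9.49 ± 0.16 (SD, 5 Sham pigs). Its CTEPH libraries were all above the Sham libraries by a small margin, and the difference of 0.24 ± 0.13 missed the threshold at an adjusted p of 0.34 (limma).

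The SKA complex and the corona proteins help kinetochores to follow and capture microtubules. SKA1 (chromosome 1, 99976354 to 99993492) had values of 4.74, 5.57, 5.58, 6.84 and 6.69 in CTEPH and 2.01, 2.72, 3.35, 2.54 and 2.72 in Sham. Sham counts were 2 to 5 in every library and CTEPH counts 12 to 64. SKA1 rose by 3.21 ± 0.48 (SE; adjusted p = 0.00224, limma). SKA3 (chromosome 11, 1302880 to 1321132) was at 7.83, 7.69, 8.05, 8.48 and 7.69 in CTEPH and 6.81, 6.95, 7.01, 6.93 and 6.82 in Sham. The Sham libraries held within a range of 0.20 and all lay below CTEPH, and SKA3 rose by 1.04 ± 0.20 (SE; adjusted p = 0.0118, limma). SKA2 (chromosome 12, 35396565 to 35433294) was at 9.56, 10.07, 10.80, 10.66 and 10.80 in CTEPH and 10.08, 9.88, 9.59, 9.78 and 9.80 in Sham. CTEPH libraries s4, s5 and s9 were above all Sham libraries, s3 was just under the highest of them and s1 was below every one. Its difference was 0.55 ± 0.23 (SE; adjusted p = 0.198, limma), and it passed without s1 (adjusted p = 0.0269, limma).

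Both corona genes rose. CENPE, a kinesin that carries chromosomes to the spindle equator (chromosome 8, 117888968 to 117965325), was at 7.09, 8.20, 9.40, 9.28 and 8.97 in CTEPH and 4.62, 4.64, 4.38, 5.29 and 5.21 in Sham. CENPF (chromosome 9, 128948386 to 129012241) was at 7.65, 8.20, 9.37, 9.79 and 8.99 in CTEPH and 5.31, 5.50, 4.94, 5.61 and 5.57 in Sham. In both genes s1 was the lowest and s4 or s5 the highest CTEPH library, and the lowest CTEPH library was above the highest Sham library by 1.81 for CENPE and 2.04 for CENPF. CENPE rose by 3.76 ± 0.41 (SE; adjusted p = 1.8e-04, limma) and CENPF by 3.41 ± 0.36 (SE; adjusted p = 1.5e-04, limma). For CENPE the counts were 65, 137, 520, 341 and 180 in CTEPH and 13, 20, 7, 16 and 15 in Sham.

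Of the spindle checkpoint genes only BUB1 and BUB1B rose, 2 of 7, by limma on the deposited values. BUB1 (chromosome 3, 45585188 to 45623240) was at 7.36, 7.71, 8.82, 9.18 and 8.35 in CTEPH and 4.21, 4.30, 4.38, 4.64 and 3.98 in Sham, without overlap, with counts of 79 to 358 in CTEPH and 6 to 16 in Sham. BUB1B, which encodes the checkpoint protein BubR1 (chromosome 1, 131093026 to 131143840), was at 7.09, 8.24, 9.20, 9.69 and 8.84 in CTEPH and 4.5, 4.5, 4.65, 4.92 and 5.47 in Sham. Library s5 was highest and s1 lowest among CTEPH in both genes. BUB1 rose by 3.98 ± 0.34 (SE; adjusted p = 7.8e-05, limma) and BUB1B by 3.81 ± 0.42 (SE; adjusted p = 2.1e-04, limma). BUB3, the partner that brings both to the kinetochore (chromosome 14, 132703088 to 132715353), was at 11.10, 11.28, 11.29, 11.45 and 11.37 in CTEPH and 11.15, 10.95, 11.10, 10.90 and 11.24 in Sham. Its libraries spanned less than 1 log2 unit with the groups overlapping, and the difference was 0.23 ± 0.12 (SE; adjusted p = 0.321, limma), with a 95% interval of -0.04 to 0.49.

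MAD2L1, whose product inhibits the anaphase-promoting complex, differed by 1.32 ± 0.36 (SE; adjusted p = 0.0552, limma). CTEPH library s1 lay inside the Sham range at 7.88 while s5 and s9 were at 9.89 and 9.96, and without s1 the gene passed (adjusted p = 0.00792, limma). MAD1L1, which holds MAD2 at the kinetochore, was at 8.79 ± 0.32 (SD, 5 CTEPH pigs) against 8.94 ± 0.33 (SD, 5 Sham pigs), a difference of -0.16 ± 0.21 (SE; adjusted p = 0.72, limma). ZW10 and ZWILCH belong to the complex that brings dynein to kinetochores. ZW10 (chromosome 9, 41358801 to 41400254) was at 10.27, 9.86, 9.98, 10.32 and 10.27 in CTEPH and 10.15, 10.14, 10.28, 9.99 and 10.11 in Sham. The groups were interleaved, with a difference of 0.00 ± 0.14 (SE; adjusted p = 0.99, limma) and an interval of -0.29 to 0.30. ZWILCH differed by 0.22 ± 0.17 (SE; adjusted p = 0.502, limma).

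Among the passenger complex and shugoshin genes 3 of 5 rose. CDCA8, which encodes borealin (chromosome 6, 93750694 to 93764845), was at 6.13, 7.22, 7.76, 7.74 and 7.15 in CTEPH and 4.21, 4.54, 3.98, 4.38 and 4.34 in Sham. BIRC5, which encodes survivin (chromosome 12, 3747276 to 3755214), was at 8.0, 7.99, 9.10, 8.80 and 9.11 in CTEPH and 6.62, 6.72, 6.61, 6.54 and 6.82 in Sham. Both were without overlap, and the Sham libraries of BIRC5 held within a range of 0.28. CDCA8 rose by 2.91 ± 0.34 (SE; adjusted p = 2.8e-04, limma) and BIRC5 by 1.94 ± 0.26 (SE; adjusted p = 8.6e-04, limma). INCENP, the scaffold of the complex (chromosome 2, 9411942 to 9445825), was at 7.56, 7.80, 8.70, 8.24 and 8.02 in CTEPH and 7.25, 7.45, 7.47, 7.20 and 7.18 in Sham. The groups did not overlap, but s1 was only 0.09 above the highest Sham library, and the difference of 0.75 ± 0.22 missed the threshold at an adjusted p of 0.0748 (limma). Without s1 it passed (adjusted p = 0.0322, limma).

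The shugoshins protect the cohesion of sister centromeres. SGO1 rose by 3.24 ± 0.46 (SE; adjusted p = 0.00163, limma), from counts of 3 to 13 in Sham to 21 to 129 in CTEPH. SGO2 (chromosome 15, 104099378 to 104150723) was at 6.04, 7.57, 7.96, 8.25 and 7.99 in CTEPH and 6.74, 5.62, 5.61, 6.05 and 6.95 in Sham. CTEPH library s1 fell inside the Sham range and the other CTEPH libraries were above it. The difference of 1.37 ± 0.42 had an adjusted p of 0.0839 with s1 and of 0.0089 without it (limma). DLGAP5, which stabilises the microtubules that attach to kinetochores (chromosome 1, 184500791 to 184550028), was at 6.98, 7.66, 8.53, 9.30 and 8.62 in CTEPH and 4.12, 3.78, 4.51, 3.48 and 4.78 in Sham. The groups were far apart, and DLGAP5 rose by 4.09 ± 0.42 (SE; adjusted p = 1.4e-04, limma), with the largest depth-scaled count ratio of the genes with counts in all libraries, 19.7. CENPJ, which despite its name encodes a centriole protein (chromosome 11, 289660 to 357920), was at 7.99, 7.84, 8.76, 8.75 and 8.14 in CTEPH and 7.26, 7.52, 7.91, 7.63 and 8.01 in Sham. Sham library s10 lay above CTEPH libraries s1 and s3, and the difference was 0.63 ± 0.24 (SE; adjusted p = 0.155, limma).

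**Figure D2:**
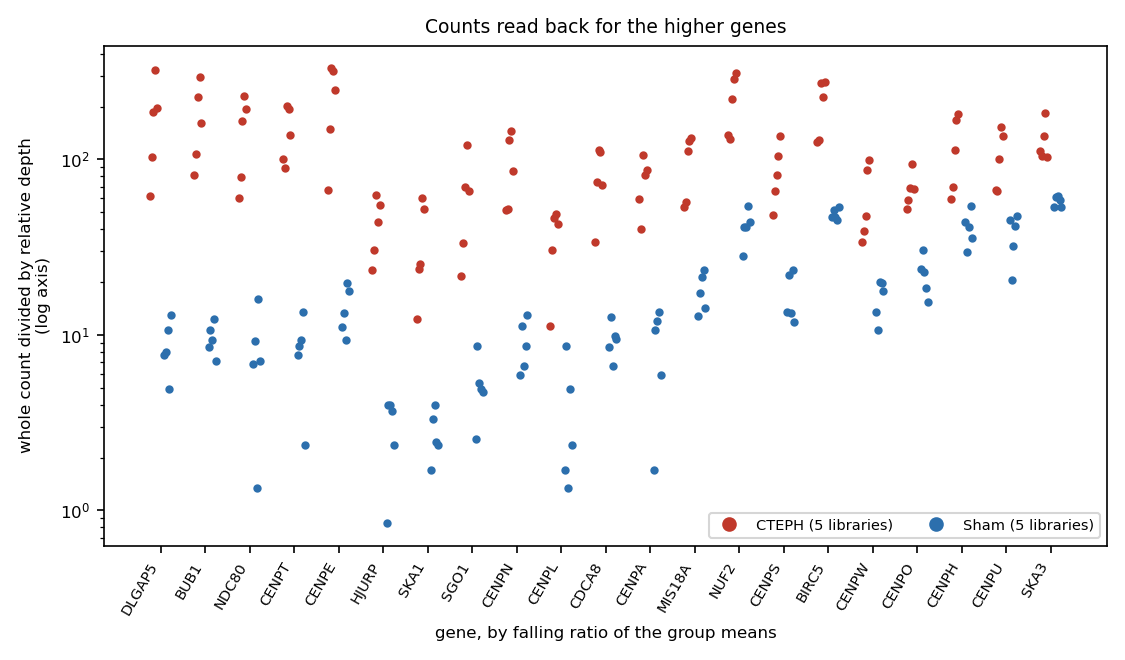
Whole counts divided by relative depth (log axis) in each library for the 21 rising genes whose counts could be read back in all 10 libraries, ordered by the ratio of the group means from 19.7 (DLGAP5) to 2.22 (SKA3). Red points are the 5 CTEPH and blue points the 5 Sham libraries; the Sham libraries of HJURP and SKA1 rest on at most 6 counts each.

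A gene that passed and a partner that did not need not differ from each other, so the difference between partners was compared between the groups. The pairs were listed with earlier results of these data known, and many set a strongly rising gene against a partner with little difference, so their p-values are not independent evidence that partners respond differently. For 14 of 16 listed pairs both genes were measured, and the log2 difference between the partners was compared over libraries with a two-sided exact permutation test, whose smallest possible p with 5 against 5 is 0.00794. In 8 of the 14 pairs the value of the first gene minus that of its partner was higher in CTEPH than in Sham (adjusted p = 0.0139 each, exact permutation with Benjamini-Hochberg over the 14 pairs), and in each of these the libraries of the groups did not overlap. BUB1 minus BUB3 was -3.74, -3.57, -2.46, -2.27 and -3.02 in CTEPH and -6.94, -6.65, -6.72, -6.26 and -7.26 in Sham. BUB1 thus gained 3.75 log2 units on BUB3 in CTEPH, and BUB1B gained 3.58. NDC80 gained 4.11 on MIS12, its value minus that of MIS12 being -5.76 ± 1.05 in the 5 Sham pigs and -1.65 ± 0.72 in the 5 CTEPH pigs (SD). SKA1 gained 2.66 on SKA2. CENPA gained 3.07 on CENPB and 3.26 on CENPC. CDCA8 and BIRC5 gained 2.16 and 1.18 on INCENP.

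In 6 pairs the difference did not pass. MAD2L1 minus MAD1L1 was -0.92, -0.62, 0.36, 1.20 and 1.63 in CTEPH and -1.27, -1.90, -0.84, -1.24 and -0.51 in Sham. CTEPH libraries s1 and s3 lay within the Sham range and s4, s5 and s9 above it, with a shift of 1.48 (adjusted p = 0.0617, exact permutation; 0.0173 by limma). The shift passed without s1 or s3 (adjusted p = 0.0247 and 0.037, exact permutation). SKA3 minus SKA2 shifted by 0.49 (95% interval by limma -0.11 to 1.09) and ZWILCH minus ZW10 by 0.22 (-0.19 to 0.63). Within the MIS12 complex, DSN1 shifted by -0.44 against MIS12, by -0.61 against PMF1 and by -0.36 against NSL1, with intervals of -1.06 to 0.19, -1.21 to -0.02 and -0.97 to 0.25 (limma). DSN1 minus NSL1 was -0.67, -0.79, -0.21, 0.15 and -1.31 in CTEPH and 0.05, -0.02, -0.34, -0.53 and -0.18 in Sham, with the groups overlapping (adjusted p = 0.23, exact permutation). SKA3 minus SKA2 passed without s9 (adjusted p = 0.037, exact permutation), ZWILCH minus ZW10 without s8 (0.0494), and DSN1 minus MIS12 and DSN1 minus PMF1 without s5 (0.0333 and 0.0139).

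**Figure D3:**
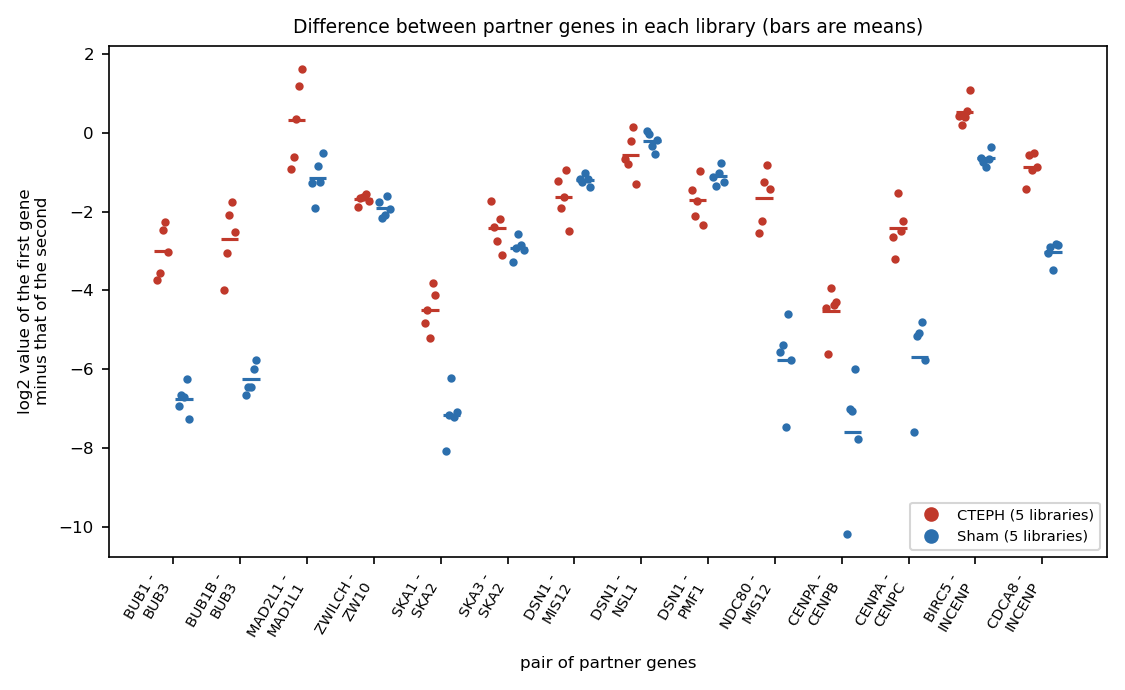
Log2 value of one gene minus that of its partner in each library, for the 14 pairs tested; red points are the 5 CTEPH and blue points the 5 Sham libraries, and bars are group means. The groups are apart in the 8 pairs that set BUB1, BUB1B, SKA1, NDC80, CENPA, BIRC5 or CDCA8 against a partner, and overlap in the other 6.

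The CTEPH pigs differed among themselves in the size of the rise. Centred on each gene's mean over the 10 libraries, the median of the 24 rising genes was 1.98 in s4, 1.97 in s5, 1.92 in s9, 0.93 in s3 and 0.46 in s1, and between -1.85 and -1.16 in the Sham libraries. Library s1 was the lowest CTEPH library for 17 of the 24 genes and s3 for the other 7, while s5 was the highest for 12, s9 for 7 and s4 for 5. Libraries s4 and s9 had the highest and the lowest relative depth of the CTEPH group, 1.57 and 0.724, and s1 and s3 were at 0.975 and 0.924. The 23 uncalled genes had medians of -0.09 to 0.43 in CTEPH and of -0.33 to -0.04 in Sham. Without s1, 30 genes rose, the 24 and CENPI, INCENP, MAD2L1, SGO2, SKA2 and SPC25, and in the same refit the count of rising genes over the whole data went from 443 to 570.

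**Figure D4:**
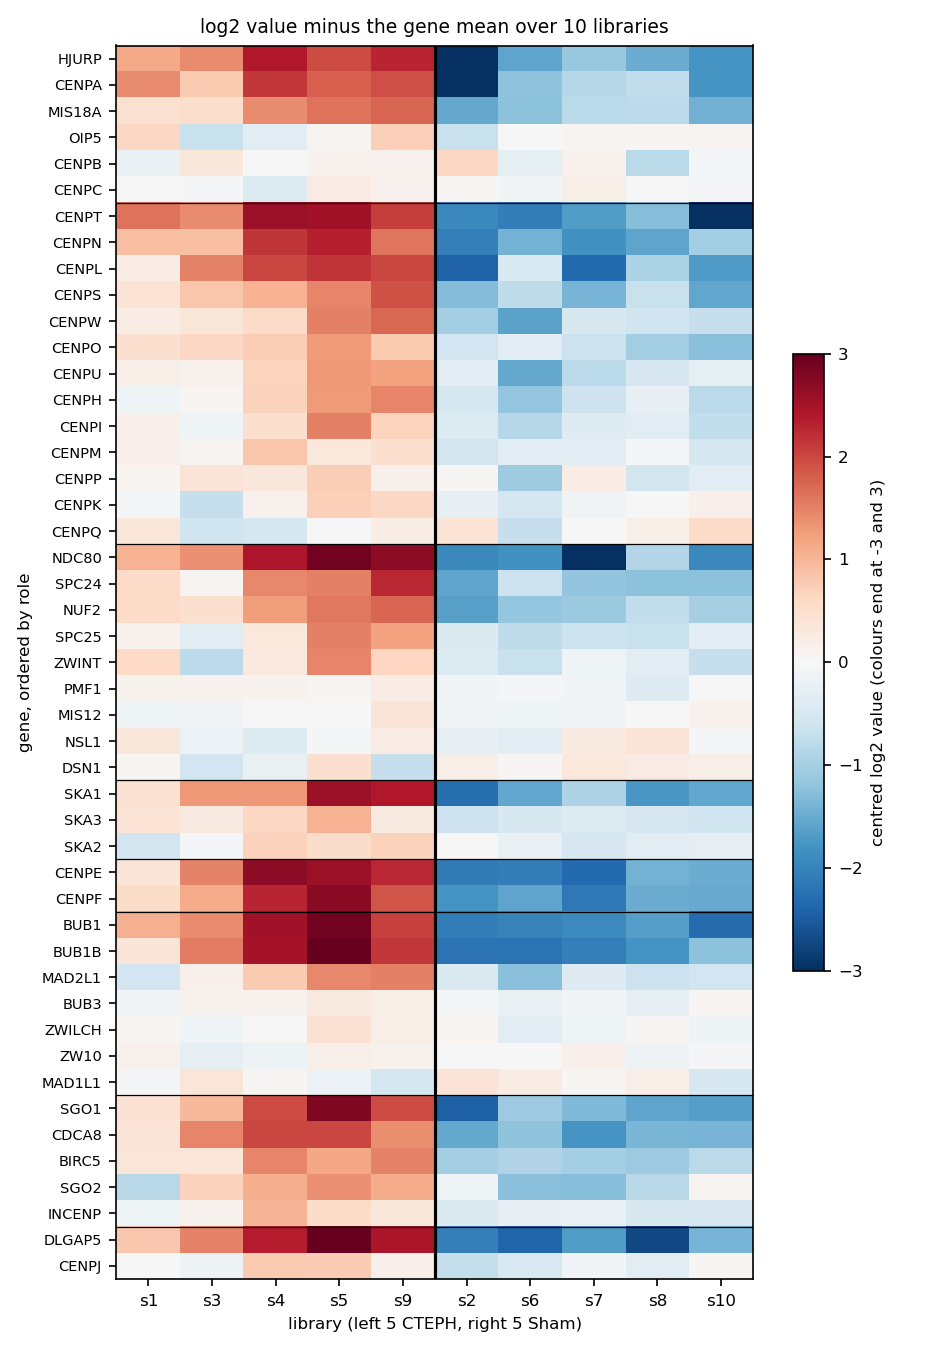
Log2 value of each of the 47 genes minus its mean over the 10 libraries, by library (columns, CTEPH left of the line and Sham right of it) and by role (rows between lines); red is higher and blue is lower, with colours ending at -3 and 3. The CTEPH columns s4, s5 and s9 are the darkest, and rows such as CENPC, MIS12, BUB3 and ZW10 stay pale in every library.

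Of 30 further kinetochore and checkpoint genes on a list that shares no gene with the 47, 25 were measured, 15 rose and 1 fell, with a median log2 difference of 1.44. Over all genes 2.83% rose and 1.79% fell, with a median of -0.03. The ubiquitin-conjugating enzyme UBE2C, which works with the anaphase-promoting complex, rose by 4.66 ± 0.39, the spindle protein SPAG5 by 3.78 ± 0.39, the anaphase activator CDC20 by 3.26 ± 0.34, the spindle assembly factor TPX2 by 3.20 ± 0.34 and the checkpoint kinase TTK by 3.50 ± 0.40 (adjusted p = 7.8e-05, 1.4e-04, 1.4e-04, 1.4e-04 and 2.5e-04, limma). TTK was at 8.13 ± 0.79 (SD, 5 CTEPH pigs) against 4.64 ± 0.57 (SD, 5 Sham pigs). At the other end, the chromatin remodeller subunit RSF1 differed by -0.08 ± 0.14 (SE; adjusted p = 0.791, limma). CLASP2, a microtubule-stabilising protein named here after its value was seen, fell by 0.71 ± 0.15 (adjusted p = 0.0163, limma). Among 22 replication licensing genes, which act earlier in the cell cycle, 12 rose and 0 fell by limma, with a median of 1.30 and 1 lower at an unadjusted p under 0.05. The helicase subunit MCM2 rose by 2.68 ± 0.25 and the licensing factor CDT1 by 2.78 ± 0.28 (adjusted p = 9.9e-05 and 1.4e-04, limma). All of these comparisons share the same 10 libraries.

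Marker lists of the cell types that may lie in right ventricular tissue were read beside these genes, with the level of a list given as the mean of its gene-centred log2 values. Of 9 measured macrophage markers 0 passed by limma, with 2 higher and 1 lower at an unadjusted p under 0.05, and their level ran from -0.24 to 0.71 in CTEPH and from -0.57 to 0.25 in Sham. The macrophage level was 0.71 in s1, 0.05 in s3, 0.04 in s4, -0.24 in s5 and 0.17 in s9. Of the 9 macrophage markers 8 had a positive difference, and the median was 0.38. Of 7 T and NK cell markers 0 passed by limma, and 0 had a p under 0.05 before adjustment (0.01 to 0.20 in CTEPH, -0.57 to 0.82 in Sham). Of 8 fibroblast markers 0 passed by limma and 1 was lower at an unadjusted p under 0.05, with levels of -0.46 in s1, -0.16 in s3, 0.51 in s4, 0.27 in s5 and -0.01 in s9, and -0.35 to 0.20 in Sham. Of 9 endothelial markers 2 fell, TEK and FLT1, with 5 lower at an unadjusted p under 0.05 (limma). Of these 9 markers 0 had a positive difference, and the median was -0.41. The endothelial level ran from -0.54 to -0.06 in CTEPH and from -0.09 to 0.64 in Sham. Of 8 smooth muscle and pericyte markers CNN1 rose, while PDGFRB and RGS5 differed by -0.54 ± 0.19 and -0.61 ± 0.26, lower at an unadjusted p under 0.05. The median difference of this list was -0.11, with list levels of -0.69 in s1, 0.39 in s3, 0.53 in s4, 0.42 in s5 and -0.42 in s9, and -0.27 to 0.17 in Sham. Of 10 cardiomyocyte markers MYL2 rose and MYBPC3 differed by -0.54 ± 0.23, lower at an unadjusted p under 0.05. Of these 10 markers 5 had a positive difference and the median was -0.01, with list levels of -0.14 to 0.18 in CTEPH and -0.30 to 0.12 in Sham. SOX10 of 3 Schwann cell markers and CFD of 3 adipocyte markers fell, while the adipocyte marker FABP4 differed by 0.44 ± 0.21 (adjusted p = 0.262, limma). The Schwann cell and adipocyte lists had levels in CTEPH of -0.97 to -0.08 and -0.63 to 0.34 and in Sham of -0.30 to 1.44 and -0.62 to 1.33. The marker genes in this paragraph are named after their values were seen, and each of the 6 called ones lost its call in 1 to 6 of the 10 refits without 1 library. The atrial markers MYL4, NPPA and SLN, 3 of 5 listed, had unadjusted p under 0.05 with higher values in CTEPH and 0 passed by limma (levels of -0.62 to 1.75 in CTEPH and -2.85 to 0.51 in Sham). Of the B and plasma cell, neutrophil and mast cell and erythroid precursor lists, 2 of 6, 3 of 7 and 2 of 6 genes were measured, and 0 of them passed by limma, with 0, 3 and 0 at an unadjusted p under 0.05. Of these 3, CSF3R and KIT were higher in CTEPH (1.18 ± 0.53 and 0.77 ± 0.34) and MS4A2 was lower (-0.81 ± 0.25). No measured marker was at a count of 0 in any library. The part of any cell type in the rise of the kinetochore genes was not tested.

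Of the 24 rising genes, 22 kept their calls in all 10 refits without 1 library and in every other setting that tested them, and the exceptions were CENPH and CENPU. Quantile normalization leaves only differences relative to the other genes of a library, so a change shared by most genes cannot be seen in these values.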

How the data were processed

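Bulk RNA of the right ventricle was sequenced from 5 CTEPH and 5 Sham pigs, and samples were grouped by their titles. The authors deposited 1 log2 value for each Ensembl gene in each library. Tools listed in the submitters' processing notes are limma 3.50.0, edgeR 3.36.0, featureCounts, FastQC 0.11.5, cutadapt 1.15 and bcl2fastq 2.18.12, with the build Sscrofa11.1. No source used here gives the aligner, annotation, strand setting or gene filter. The labels give polyA RNA, while the kit named is for total RNA. The columns of deposited log2 values had medians of 9.305 to 9.308 and nearly 1 distribution, and were read as quantile normalized. Each low value equals the quantile mean of log2(2 × count + 1) for a whole count, so counts are known up to a common factor of 2. This held for 82505 values (52.8%) (tolerance 1e-06, largest error 5.0e-10). Relative depth is the median ratio of these counts to their geometric mean over libraries, over 5703 genes with at least 5 counts in every library.

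Symbols from a table of Ensembl identifiers matched 12378 genes and left 3260 unmatched. Coordinates are those of RefSeq genes of Sscrofa11.1, matched by symbol and counted from 1, and CENPS had none. The comparison of the groups used the deposited log2 values and limma 3.58.1 under R 4.3.3 (moderated variances with an intensity trend, two-sided, no covariate), with Benjamini-Hochberg adjustment over all genes and a threshold of 0.05; intervals are 95% limma intervals. The procedure was tested on simulated data. Figures and permutation tests used Python 3.11.15. Alternatives were other variance models, library weights, leaving out the lowest 25% of genes, voom on recovered counts, and leaving out each library; the ratio of depth-scaled counts was added after seeing the data.

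The members, lists and pairs were chosen with earlier results of these data known. The rule for naming gives values in every library for the 2 members with the smallest p and the member with the largest p in each role, and for the genes of the pairs with the largest and smallest p. Of the further kinetochore genes it names the 5 with the smallest and the 2 with the largest p, and of the replication licensing genes the 2 with the smallest p; 1 gene that the rule names is not reported here.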

Additional observations from a re-analysis of the deposited data

Results flagged for a closer look

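In 94 groups of 5 libraries (47 genes in CTEPH and in Sham) 4 single libraries stood apart, meaning that the gap to the nearest other library was more than 0.71 of the range of the group; chance gives about 1 in 20 groups. OIP5 was at 9.83 in Sham library s2 against 10.50 to 10.59 in the other Sham libraries. MAD2L1 was at 7.19 in Sham library s6 against 7.82 to 8.06. PMF1 was at 9.22 in Sham library s8 against 9.52 to 9.61. MIS12 was at 10.01 in CTEPH library s9 against 9.50 to 9.62. None of the 4 genes was among the 24 that rose.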

How the results depend on the processing

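The count of 24 rising genes lay between 22 and 30 in the refits without 1 library, and was 25 without the intensity trend, 24 with robust moderation and 28 with library weights. With voom it was 22 of 35 genes tested, 21 of them among the 24. Over all 6763 genes that voom tested, 3.15% rose. Leaving out the lowest 25% of genes removed 23 of the 47 genes and 19 of the 24 that rose; the other 5 still rose, and the median log2 difference of the genes left was 0.27. That setting left 5 rising genes among 16 of the further kinetochore and checkpoint genes, in place of 15 of 25. No setting gave a falling gene among the 47, and no direction of a called gene named in the text was reversed. Over all genes, 723 were called, 1269 with library weights, 308 of 6763 with voom, and 401 to 961 without 1 library; the count fell by over 1.5 times without s4 (401), s5 (475), s2 (475), s6 (425), s7 (462) or s10 (417). The cause was not tested. Pairs called numbered 8 to 10 without 1 library and 9 by limma. No paired analysis was possible because each library number occurs once. The planned search for promoter motifs and the pairs with KNL1 and CENPX were not run. Depth limits the lowest genes: Sham totals over 5 libraries were 14 counts for SKA1, 15 for HJURP and 22 for CENPL.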
